A study of Mus with 12 samples.

Results

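The regions described here carried an m6A peak in the livers of at least 2 of 3 WT mice and in none of 3 HFD mice. They were chosen by the presence or absence of called peaks in the 6 lists, after peaks that shared 1 base or more had been joined into regions. Of 18374 merged regions, 504 (2.74%) met it, and they lay in 401 of the 7906 genes with a peak in any liver. In 146 of these genes (216 regions) no HFD list held a peak assigned to the gene, and in the other 255 genes (288 regions) HFD lists held peaks elsewhere in the gene. Both groups were male C57BL/6J mice, 6 weeks old at the start. For 12 weeks, HFD mice ate a high-fat diet with fat as 60% of its energy and WT mice a low-fat diet with 10%. m6A was measured by MeRIP-seq of liver RNA from 3 mice per group, named HFD 1 to HFD 3 and WT 1 to WT 3. Because the diet label reads HFD on each of the 12 samples, grouping followed the titles, which tell treated mice from controls. The 6 samples titled as inputs were not analysed here.

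N6-methyladenosine (m6A) is the most common internal modification of mRNA. A methyltransferase complex writes it during transcription, demethylases can remove it, and reader proteins that bind it affect splicing, export, translation and decay of the transcript. MeRIP-seq captures RNA fragments by an m6A antibody, and peaks mark the parts of transcripts with more captured fragments than the input has. In liver, m6A lies on many transcripts of lipid and glucose metabolism. A peak is called only where the transcript is expressed and sequenced deeply enough, so absence of a peak from a list is not absence of methylation. In a whole liver, fewer cells of a type and less RNA per cell cannot be told apart either.

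The rule itself used the HFD and WT lists, so all values below are a description and none was tested. The HFD lists held 12898, 11925 and 10288 peaks in HFD 1, HFD 2 and HFD 3, against 10109, 10376 and 12966 in WT 1, WT 2 and WT 3. The depth of the libraries was not given in the sources used here. Of the 504 regions, 223 had a peak in WT 1, 392 in WT 2 and 447 in WT 3, so WT 1 took part least often. Just outside the rule, 676 regions had a peak in 2 WT lists and 1 HFD list, 249 in 3 WT lists and 1 HFD list, and 1950 in a single WT list and no HFD list. Just inside it, 450 regions had a peak in exactly 2 WT lists and 54 in all 3 (0.294% of all regions). The count in the opposite direction, at least 2 HFD lists and no WT list, was 727 regions (3.96%) in 664 genes, and 210 of those genes had no WT peak assigned to them.

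WT 2 and WT 3 stood apart from the other 4 livers in transcripts of skeletal muscle. Of 84 skeletal muscle genes in a marker list, 5 had a peak in each of HFD 1, HFD 2 and HFD 3, against 5 in WT 1, 39 in WT 2 and 50 in WT 3. The same genes held 12, 10 and 5 regions in HFD 1, HFD 2 and HFD 3, against 16, 132 and 189 regions in WT 1, WT 2 and WT 3. By genes, WT 1 equalled the HFD livers, and WT 2 and WT 3 lay far outside it. Of a heart muscle list of 10 genes, none had a peak in any HFD liver, against 0, 1 and 2 genes in WT 1, WT 2 and WT 3. The single heart list gene with WT-only regions was Myh7, a myosin heavy chain of heart and of slow skeletal muscle. None of 10 pancreatic acinar genes had a peak in any liver, whereas of 12 hepatocyte genes 4, 4 and 3 had one in HFD mice, against 3, 3 and 2 in WT mice. Of 10 smooth muscle genes, the regions numbered 6, 8 and 5 in HFD 1, HFD 2 and HFD 3, against 5, 7 and 16 in WT 1, WT 2 and WT 3, and WT 3 was the highest. The 10 adipocyte genes had 4 regions in each HFD liver, against 3, 4 and 7 in WT 1, WT 2 and WT 3. The 10 lymphocyte genes had 2, 2 and 1 regions in HFD 1, HFD 2 and HFD 3, against 0 in each WT liver. Only 2 of these 10 genes had a peak in any liver, and no difference can be read from so few. How far the muscle transcripts of WT 2 and WT 3 set the composition of the WT-only regions was not tested, and counts below are given with and without the skeletal muscle list.

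The WT-only regions were therefore first divided by the lists that held them. WT 2 and WT 3 alone shared 281 regions, WT 1 and WT 3 shared 112, WT 1 and WT 2 shared 57, and all 3 WT lists shared 54. The skeletal muscle list accounted for 105 of the 504 regions, in 32 of its 53 genes with a peak in any liver (60.4%). Over all genes with a peak, 401 of 7906 (5.07%) had a WT-only region. The list was chosen with earlier results of these data known, so its share is no independent support. Of the 105 regions, 101 were shared by WT 2 and WT 3 alone and 4 were held by all 3 WT lists. No region of the list had the pattern WT 1 with WT 2 or WT 1 with WT 3. Without the list, 399 regions were left, of which 180 were shared by WT 2 and WT 3 alone. Genes with no HFD peak assigned to them were then 117 in place of 146, with 132 regions in place of 216. In the opposite direction, none of the 727 regions lay in a gene of the skeletal muscle list.

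**Figure D1:**
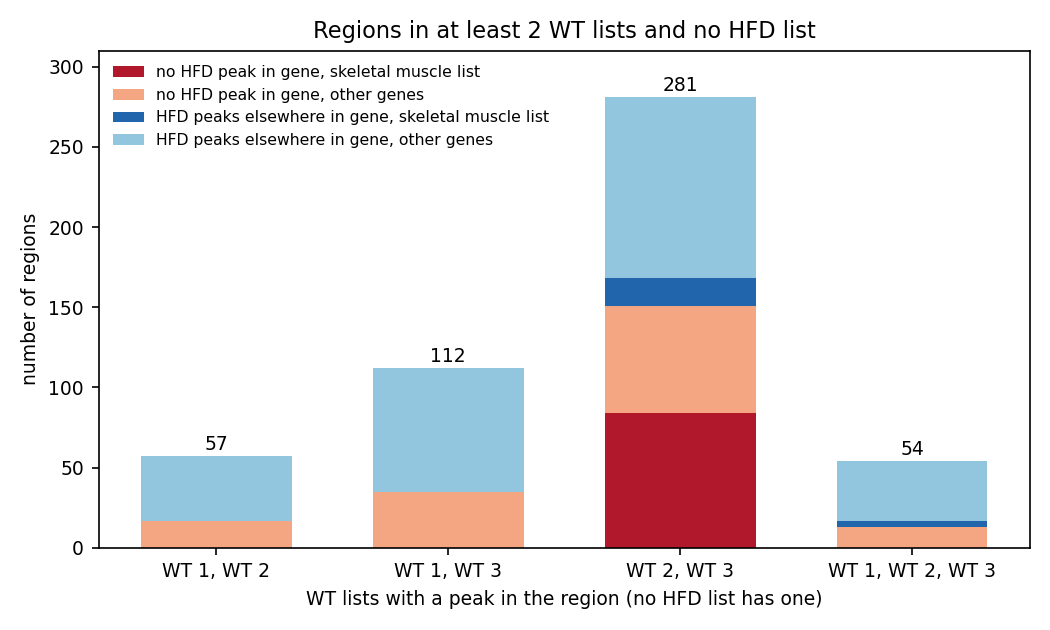
Number of regions with a peak in at least 2 WT lists and no HFD list, by the WT lists that held the peak. Colors divide each bar by whether HFD lists had peaks elsewhere in the gene and by the skeletal muscle list. The bar of WT 2 with WT 3 is the tallest at 281 regions and holds 101 of the 105 regions of skeletal muscle genes.

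The regions were mostly weak peaks within their own lists. Fold enrichment, the deposited ratio of pull-down over input for each peak, is not scaled between libraries. Over the WT-only regions its median was 5.47 in WT 1, 5.75 in WT 2 and 6.52 in WT 3. All peaks of these lists had medians of 7.64, 7.48 and 7.87, and the regions found in all 6 lists had medians of 9.70, 9.45 and 11.4. Ranked within its own list, the median WT-only peak stood at percentile 24.0 in WT 1, 30.3 in WT 2 and 36.2 in WT 3. Regions with 1 HFD list, which narrowly missed the rule, ranked nearly the same, at medians of 28.0, 30.0 and 32.1. In WT 2 and WT 3, the regions of the skeletal muscle list ranked higher, with medians of 49.9 and 64.1, than the remaining regions, with medians of 26.0 and 31.7. The scores, minus 10 times the log10 of the p-value, had medians of 81.8, 104 and 140 in WT 1, WT 2 and WT 3, against 231, 224 and 247 over all peaks of those lists. The deposited false discovery rate of the WT-only peaks had medians of 100%, 100% and 72.4% in WT 1, WT 2 and WT 3. In the regions found in all 6 lists its medians were 100%, 100% and 52.5%.

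**Figure D2:**
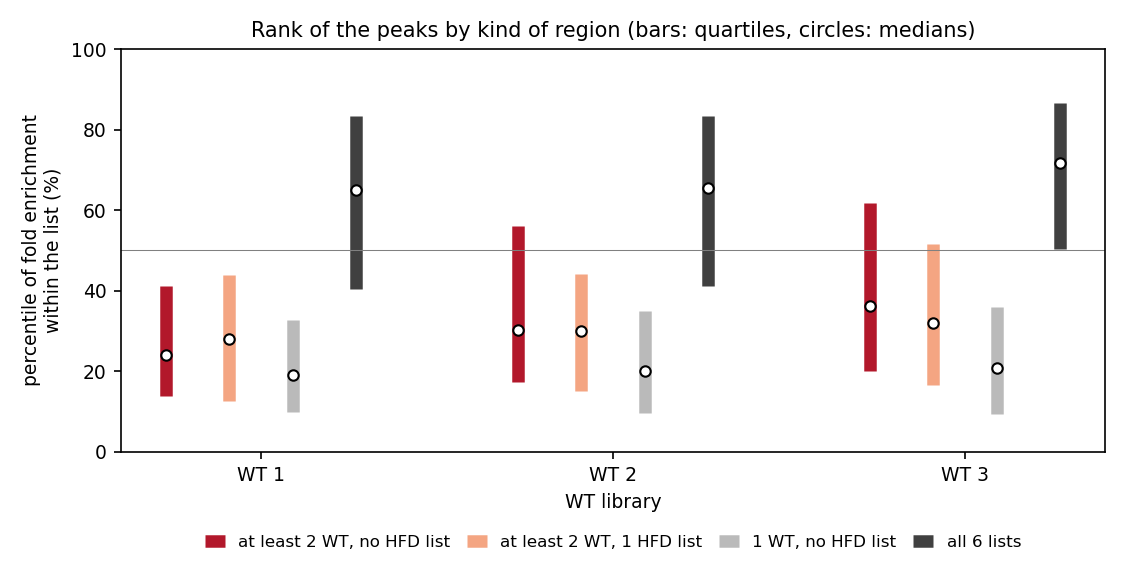
Percentile of the deposited fold enrichment within each WT list (y axis, in percent) for 4 kinds of region, with bars from the first to the third quartile and circles at the median. WT-only regions have medians of 24.0, 30.3 and 36.2 in WT 1, WT 2 and WT 3, close to those of regions with 1 HFD list and below those of regions in all 6 lists.

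Within a WT-only region, the peaks of different mice were joined because they shared bases. In 475 of 504 regions (94.2%) the shorter peak of every pair of WT lists lay wholly within the longer one, and in 503 regions at least 50% of it did. Such peaks can still differ in length, and these shares were not set beside those of other regions. The median length was 243 bases, against 258 over all regions. Lengths ran from 15 to 17106 bases, the longest being in Ttn. Chromosome 2 held 81 of the regions, of which 27 lay in Ttn and 19 in Neb, and chromosome 7 held 44. The share of all merged regions on these chromosomes was not counted, so no excess can be read from these numbers. All positions are given with the first base as 1 and fit the mouse build GRCm38, since 487 of 494 regions with a matched gene lay over the bounds of that gene in RefSeq. The submitters' notes name a human build instead. The lists give no strand.

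Among genes without an HFD peak, 13 had a region in all 3 WT lists, none of them in the skeletal muscle list. Alyref2, a relative of the mRNA export adaptor Alyref, led them on chromosome 1 from 171503478 to 171504750. Its fold enrichment was 33.5, 20.8 and 19.9 in WT 1, WT 2 and WT 3, and no HFD list held a peak in the gene. The value in WT 1 was the highest of all WT-only peaks in that liver, and the region was the only peak of the gene in each WT list. Lims2, an adaptor protein at sites of cell adhesion, had 6.78, 8.39 and 9.48 in WT 1, WT 2 and WT 3. Tfdp2, a partner subunit of E2F transcription factors, had 6.56, 7.52 and 7.82 over a region on chromosome 9 from 96317788 to 96318738. In both genes the 3 WT values lay within a narrow range, whereas Alyref2 was highest in WT 1.

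The other 10 genes had values between 3.38 and 10.1. Nfkbia, the inhibitor that holds NF-kB in the cytoplasm, had a region (chromosome 12 from 55492300 to 55492647) with 4.66, 3.82 and 8.70 in WT 1, WT 2 and WT 3. Patl1, a factor of mRNA decapping in P bodies, had one on chromosome 19 from 11914348 to 11914459 at 6.08, 7.56 and 5.25. A further region of Patl1, on the same chromosome from 11920178 to 11920395, was held by WT 1 (4.51) and WT 2 (7.05). WT 3 had a second Patl1 peak in a region of its own, and no HFD liver had a peak in the gene. Smek2, a regulatory subunit of protein phosphatase 4, had 8.34, 4.53 and 6.82 on chromosome 11 from 29211607 to 29211791. Tor3a, an ATPase of the endoplasmic reticulum related to torsin, had 5.22, 5.05 and 4.69 on chromosome 1 from 156653719 to 156655943. Nipal1, a magnesium transporter, had 5.04, 5.04 and 10.1. BC021891 had 6.43, 4.24 and 5.88 on chromosome 8, beside a second region held by WT 1 (6.86) and WT 3 (9.09). Enrichment in the remaining genes E130012A19Rik, Btf3l4, Cep57 and Zfp595 was between 3.38 and 7.78. The regions of these 4 genes ranked from 205 to 485 of the 504, when regions are ranked by the lowest within-list percentile. The region of Cep57, a protein of the centrosome, also lay over the bounds of the gene Mtmr2, and HFD peaks assigned to other genes lay over the bounds of Zfp595. For these 2 genes the assignment to the class without an HFD peak rests on the gene that the lists name.

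The highest fold enrichments of all belonged to muscle transcripts of WT 2 and WT 3. Ttn, which encodes titin, the giant spring protein of the sarcomere, had the top region on chromosome 2 from 76863274 to 76863675, at 55.9 in WT 2 and 119 in WT 3. No peak of Ttn was found in HFD 1, HFD 2, HFD 3 or WT 1, against 31 regions in WT 2 and 38 in WT 3, and 27 regions were shared by these 2 livers. Ryr1, the calcium release channel of skeletal muscle, followed with 40.8 in WT 2 and 45.9 in WT 3 on chromosome 7 from 29083371 to 29083634. Tnnt3, the troponin T of fast skeletal muscle, had 39.2 and 63.9 on chromosome 7 from 142498836 to 142498899, and 6 regions in total. Hrc, a calcium-binding protein of the sarcoplasmic reticulum, had 23.8 and 35.4 in its single region. In all 4 genes the value was higher in WT 3 than in WT 2.

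WT-only regions numbered 3 or more in 9 genes, together 79 of the 504, and 7 of them were in the skeletal muscle list. Besides Ttn, Tnnt3 (6 regions) and Ryr1 (5), these were the myosin heavy chain genes Myh4 (5), Myh2 (5) and Myh1 (3) and the nebulin gene Neb (19). Myh7 (6) and Cmya5 (3), which encodes a muscle protein that binds alpha-actinin, were outside the list. All but Neb had no peak in HFD 1, HFD 2, HFD 3 or WT 1. Neb, which encodes nebulin, the ruler of the thin filament, had peaks in every liver, in 7, 5 and 1 regions in HFD 1, HFD 2 and HFD 3, against 12, 29 and 42 in WT 1, WT 2 and WT 3. Outside the WT-only regions it had 7, 5 and 1 peaks in HFD 1, HFD 2 and HFD 3, against 8, 10 and 23 in WT 1, WT 2 and WT 3. The 4 regions of the skeletal muscle list held by all 3 WT lists were all in Neb. The one on chromosome 2 from 52298619 to 52298732 had 6.43, 13.8 and 26.6 in WT 1, WT 2 and WT 3.

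By role, the muscle regions lay in genes of the filaments, of calcium handling and of energy metabolism, counted here among genes with a peak in any liver. Over all genes, 401 of 7906 (5.07%) had a WT-only region. Of 8 genes for giant proteins of the sarcomere, 6 had 52 such regions, and among them Flnc, a filamin of the Z disc, had 6.67 in WT 2 and 12.3 in WT 3. Thick filament genes gave 21 regions in 6 of 10 genes, led by Myh1 at 18.3 in WT 2 and 22.2 in WT 3 (chromosome 11 from 67214918 to 67215307). Thin filament and Z disc genes gave 21 regions in 12 of 16 genes, among them Tcap, the titin cap, at 9.57 and 11.8. Acta1, the skeletal muscle actin, chosen after its values were seen, had peaks of 3.71 in WT 2 and 2.97 in WT 3. Calcium handling gave 11 regions in 6 of 9 genes and muscle energy metabolism 4 regions in 3 of 8 genes. Mb, which encodes myoglobin, had a region on chromosome 15 from 77017576 to 77017798 at 4.18 in WT 2 and 6.81 in WT 3. Slc25a4, the mitochondrial ADP and ATP carrier of muscle and heart, had 6.54 and 7.16. The ubiquitin ligase genes Trim63 and Trim54 and the Kelch gene Klhl31 gave 5 regions in 3 of 8 genes of muscle ubiquitin ligases and Kelch proteins, with Trim63 at 9.14 and 13.8. All of these lists were set with earlier results of the data known, so their counts are no independent support.

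**Figure D3:**
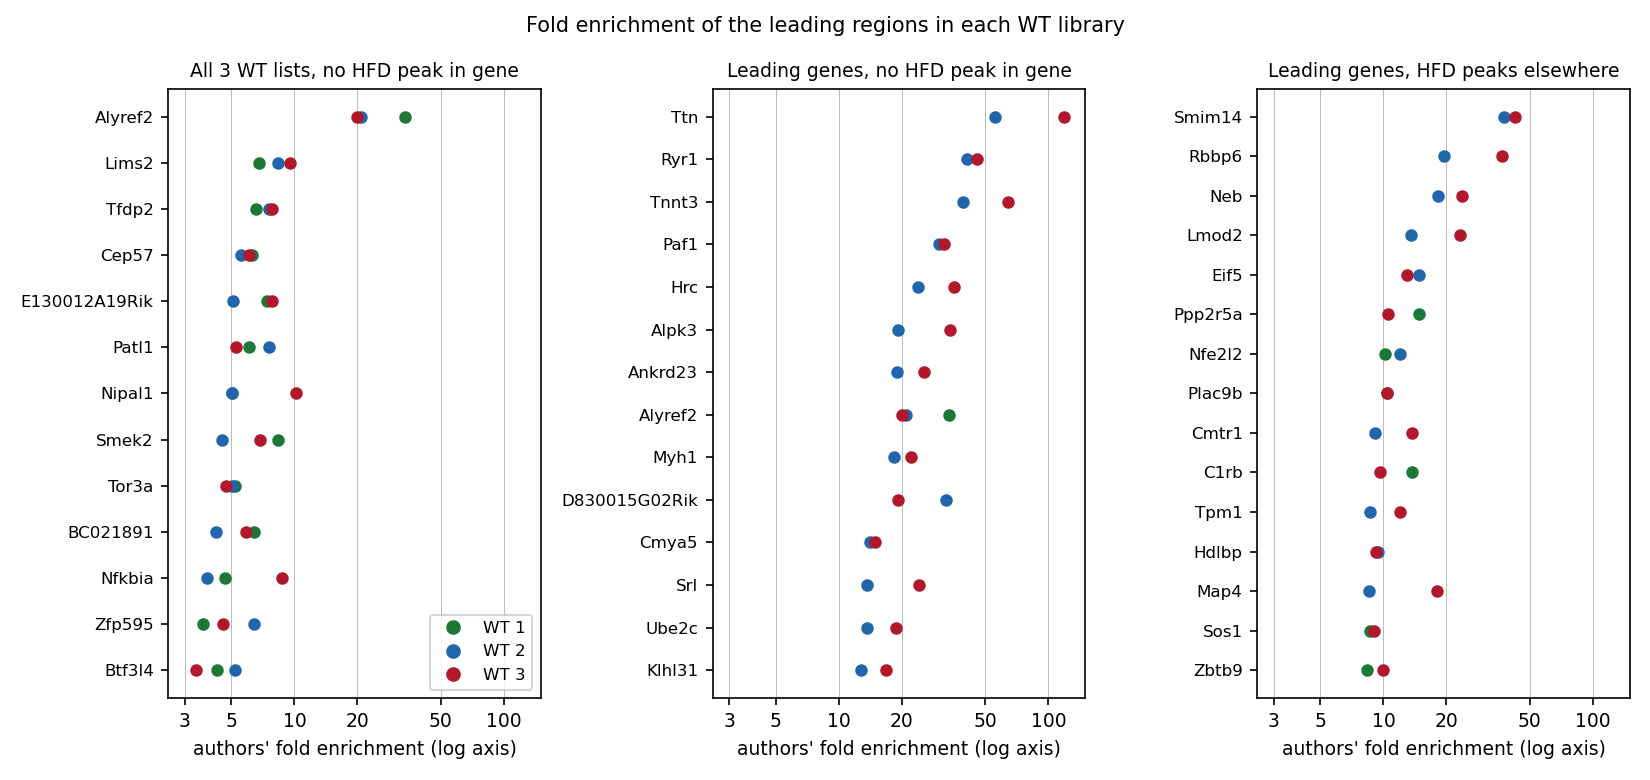
Deposited fold enrichment (x axis, log scale) of single regions in WT 1, WT 2 and WT 3, shown for the 13 regions in all 3 WT lists of genes without an HFD peak, and for the first region of leading genes of each class. No HFD list held a peak in any of these regions. The leading genes of the middle panel have points for WT 2 and WT 3 alone, except Alyref2, and reach 119 in Ttn.

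Several leading genes outside the skeletal muscle list shared the pattern of WT 2 with WT 3. Paf1, a subunit of a complex that travels with RNA polymerase II, had 30.0 in WT 2 and 31.8 in WT 3 on chromosome 7 from 28398826 to 28399388. Alpk3, a kinase-like protein of striated muscle, had 19.1 and 33.9. Neither gene had a peak in any HFD liver or in WT 1. The region named Ube2c in the lists (13.6 in WT 2 and 18.7 in WT 3) lay outside the bounds of Ube2c and over those of Tnnc2, the troponin C of fast muscle, in RefSeq. The region named D830015G02Rik (32.4 and 19.1) lay over the bounds of Myh7. Further genes known from muscle were chosen after their values were seen. Ucp3, a mitochondrial uncoupling protein of muscle, had 9.40 in WT 2 and 13.3 in WT 3, and Speg, a kinase of striated muscle, had 7.05 and 20.1. Cox8b, a cytochrome c oxidase subunit of heart and muscle, had 2 regions in the same livers. Annotation terms in the lists also name muscle components for genes outside the skeletal muscle list. Among regions outside the list, 21 of 180 shared by WT 2 and WT 3 alone had such a term, in 15 genes. The term was also on 4 of 112 regions of WT 1 with WT 3, 0 of 57 of WT 1 with WT 2 and 1 of 50 held by all 3 WT lists. Across all WT-only regions, 24 (4.76%) lay over the bounds of a protein-coding gene with another symbol in RefSeq. Some of these symbols are newer names of the same gene, such as Wapl for Wapal and Epb41 for Epb4.1. Fewer than 24 regions therefore lay over a different gene, and the count was not set beside that of all regions.

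WT 1 held regions in further genes without an HFD peak, shared with 1 other WT liver. 0610011F06Rik led those of WT 1 with WT 2, at 12.3 and 13.7 on chromosome 17 from 25876661 to 25877169. Arf3, a small GTPase of the Golgi, had 7.51 and 9.72 in the same pair, and Cnot11, a subunit of the deadenylase complex that shortens poly(A) tails, had 6.92 and 6.96. Nfrkb, a subunit of a chromatin remodeling complex, had 9.03 in WT 1 and 8.39 in WT 3. Hsd3b5, a male-biased steroid dehydrogenase of mouse liver, had 5.24 in WT 1 and 5.11 in WT 3 on chromosome 3 from 98618636 to 98619818. Hsd3b4, a related dehydrogenase chosen after its values were seen, had 13.9 in WT 1 and 5.38 in WT 2 over its RefSeq bounds. A second region that the lists give to Hsd3b4, at 8.45 and 5.54, lay outside those bounds and over a predicted gene. Counting of near-identical Hsd3b copies could divide their reads, so the gene named for these peaks is uncertain.

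The 255 genes with HFD peaks elsewhere had an HFD peak by definition. How many HFD lists held one was not set beside the same count for other genes. Of the 255 genes, 188 had peaks elsewhere in all 3 HFD lists, 29 in 2 and 38 in 1. These genes held 1048 other regions, of which 372 in 155 genes were found in all 6 lists. The other regions numbered 715, 676 and 614 in HFD 1, HFD 2 and HFD 3, against 593, 629 and 746 in WT 1, WT 2 and WT 3, and the ranges overlapped. In the regions found in all 6 lists, the median within-list percentile was 63.0, 65.3 and 62.9 in HFD mice, against 63.0, 64.4 and 71.1 in WT mice. Over all 6245 regions of that kind, the medians were 71.8, 70.2 and 65.6 in HFD mice, against 65.3, 65.6 and 71.8 in WT mice.

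The distance to the nearest HFD peak of the same gene had a median of 4496 bases, counted along the genome with introns included. It was within 100 bases for 1 region, within 500 bases for 20, within 1000 bases for 54 and within 10000 bases for 195 of 288. The closest was Cmtr1, the enzyme that methylates the first nucleotide after the mRNA cap, at 35 bases from an HFD peak. Its region on chromosome 17 from 29660807 to 29661158 had 9.09 in WT 2 and 13.6 in WT 3. Plekhg1, a guanine nucleotide exchange factor, lay at 124 bases, on chromosome 10 from 3740665 to 3741007, with 8.17, 7.89 and 10.1 in WT 1, WT 2 and WT 3. Zfhx3, a transcription factor chosen after its values were seen, lay at 106 bases with 4.43, 4.52 and 5.60 in the same 3 livers. In such genes peaks of both groups were neighbors. That they shared no base follows from the rule, and the distances were not set beside those between peaks of other genes.

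**Figure D4:**
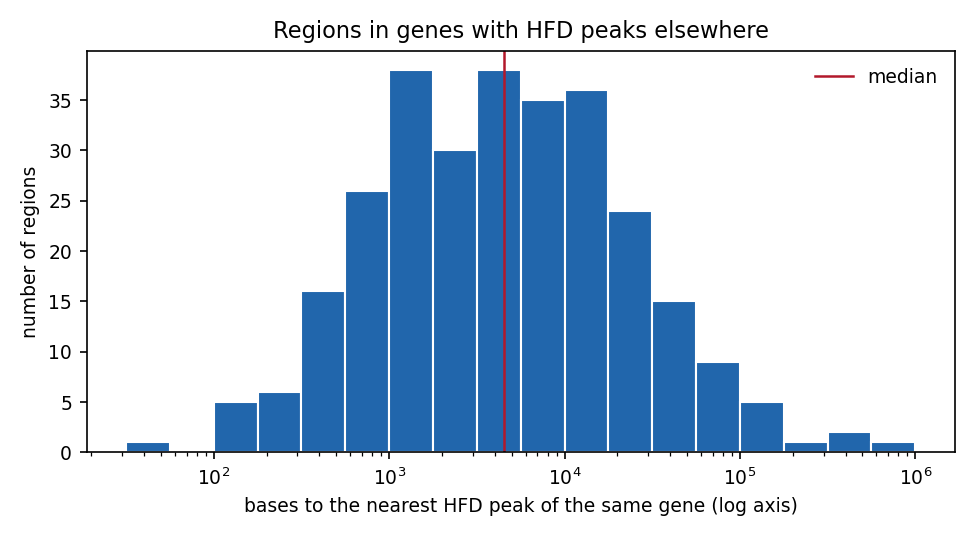
Number of regions by the distance in bases to the nearest HFD peak of the same gene (log axis), for 288 regions in genes with HFD peaks elsewhere. The red line marks the median of 4496 bases, and a single region lies within 100 bases.

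Of the regions in genes with HFD peaks elsewhere, 41 were held by all 3 WT lists. Tcea3, a transcription elongation factor, had 8.03, 9.02 and 14.1 in WT 1, WT 2 and WT 3 on chromosome 4 from 136255150 to 136255288. Outside this region the gene held 9, 8 and 9 peaks in HFD 1, HFD 2 and HFD 3, against 6, 8 and 8 peaks in WT 1, WT 2 and WT 3. Itih5, which stabilizes hyaluronan in the extracellular matrix, had 2 such regions on chromosome 2. The first, from 10186955 to 10187056, had 10.6, 8.23 and 8.04 and the second, from 10185519 to 10185682, had 7.12, 5.04 and 6.29. Outside these regions Itih5 had 1, 0 and 0 peaks in HFD 1, HFD 2 and HFD 3, against 1, 1 and 4 peaks in WT 1, WT 2 and WT 3, and the ranges met. Rcor1, a corepressor gene chosen after its values were seen, had 5.31, 9.74 and 6.64 in WT 1, WT 2 and WT 3. Outside this region Rcor1 had 1 peak in each HFD liver, against 1, 2 and 1 in WT 1, WT 2 and WT 3. Fdft1, the squalene synthase of cholesterol synthesis, also chosen after its values were seen, had low values of 3.02, 2.70 and 3.83 on chromosome 14 from 63146275 to 63146968.

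Each of 4 lists of lipid and glucose metabolism gave 1 gene with a WT-only region. Together these were 4 of 70 genes with a peak in any liver (5.71%), near the 401 of 7906 (5.07%) over all genes. Abcg1, which exports cholesterol to lipoproteins, was the only one of 15 cholesterol and lipoprotein genes with a peak in any liver that had a WT-only region. The region (chromosome 17 from 31117515 to 31117981) had 10.4, 5.88 and 9.79 in WT 1, WT 2 and WT 3, and its nearest HFD peak was 1906 bases away. Outside this region Abcg1 had 0, 0 and 1 peaks in HFD 1, HFD 2 and HFD 3, against 1, 1 and 0 in WT 1, WT 2 and WT 3, and the counts overlapped. Ppargc1a, the coactivator PGC-1alpha of mitochondrial and fasting genes, was the only one of 13 fatty acid oxidation genes. Its region on chromosome 5 from 51472598 to 51472718 had 6.89 in WT 2 and 11.1 in WT 3, at 777 bases from an HFD peak. Apart from this region, which the rule chose, the gene carried 4, 1 and 1 peaks in HFD 1, HFD 2 and HFD 3, against 5, 4 and 4 in WT 1, WT 2 and WT 3, and HFD 1 equalled WT 2 and WT 3. Me1, the malic enzyme that supplies NADPH for fatty acid synthesis, had 5.18 in WT 2 and 3.89 in WT 3 and no peak in the other 4 livers. Rptor, the raptor subunit of mTORC1, had 6.25 in WT 1 and 9.62 in WT 3, and was the only one of 25 insulin and glucose genes. Ppargc1a and Me1 shared their libraries with the skeletal muscle genes, whose part in these values was not tested.

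**Figure D5:**
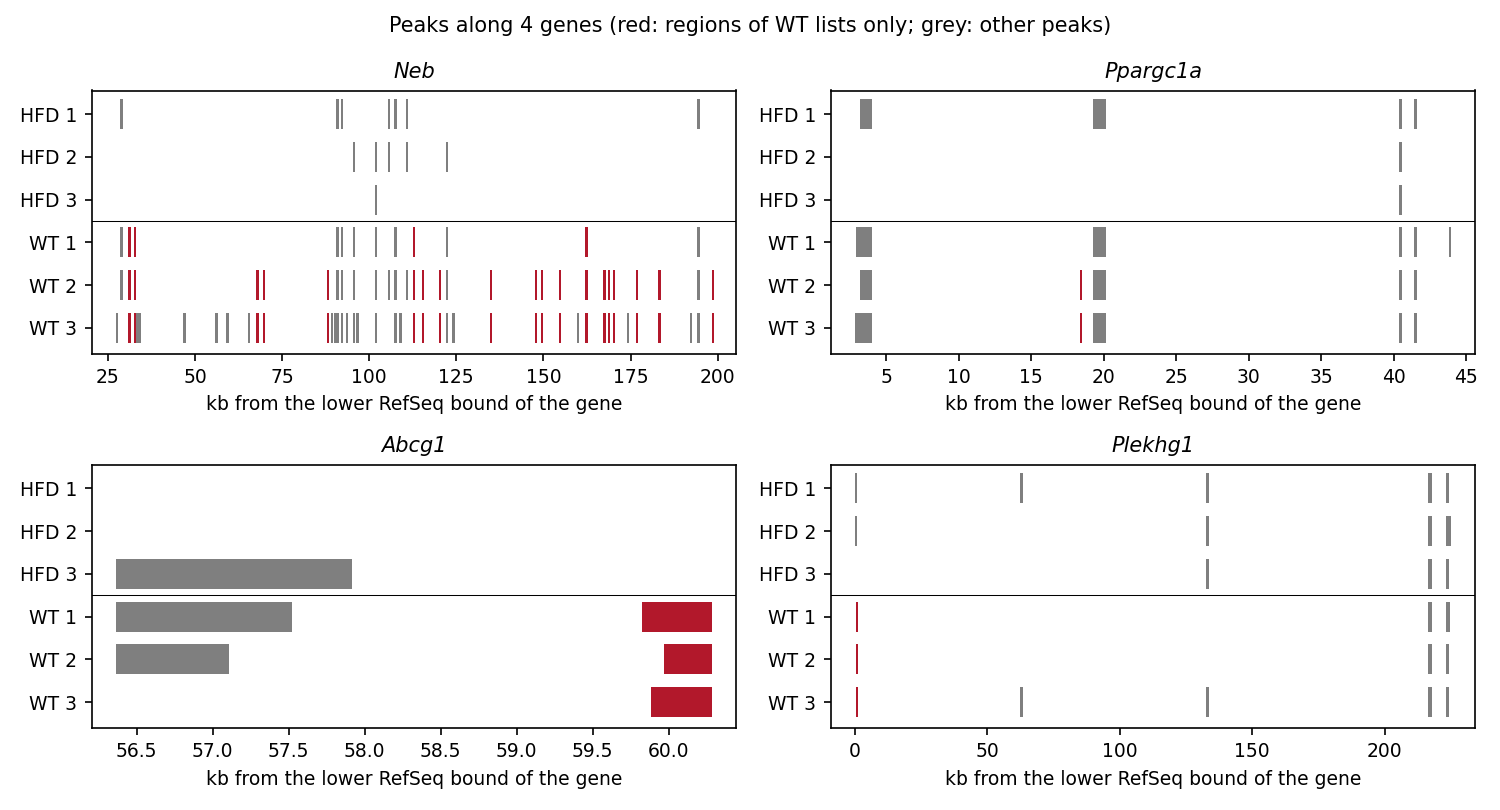
Peaks of HFD 1 to HFD 3 (upper rows) and WT 1 to WT 3 (lower rows) along Neb, Ppargc1a, Abcg1 and Plekhg1, in kb from the lower RefSeq bound of each gene, with narrow peaks widened to be visible. Red marks the regions of at least 2 WT lists and no HFD list and grey all other peaks. In Ppargc1a the red region of WT 2 and WT 3 lies 777 bases from a peak of HFD 1, and in Plekhg1 the red region lies 124 bases from an HFD peak.

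The clock genes Per2 and Bhlhe41 and the antioxidant regulator gene Nfe2l2 each had 1 region, held by a pair of WT livers. Per2, a repressor of the circadian clock, had 6.68 in WT 1 and 11.9 in WT 3 on chromosome 1 from 91444585 to 91444786. Outside this region it carried 4, 1 and 1 peaks in HFD 1, HFD 2 and HFD 3, against 1, 0 and 4 in WT 1, WT 2 and WT 3, with overlapping ranges. Bhlhe41, a further clock repressor, had 9.28 in WT 2 and 5.64 in WT 3. Together they were 2 of 16 clock genes with a peak in any liver, against 401 of 7906 over all genes. Nfe2l2, which encodes NRF2, the regulator of antioxidant genes, had a region on chromosome 2 from 75704364 to 75704641 at 10.2 in WT 1 and 12.03 in WT 2, 24934 bases from the nearest HFD peak. Outside this region the gene had 2 peaks in each of the 6 livers. Cyp2a4, a female-biased cytochrome P450, had 8.73 in WT 2 and 5.60 in WT 3. Cyp2a4 has near-identical copies, so the gene named for this peak is uncertain.

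Other leading genes with HFD peaks elsewhere included Smim14 and Rbbp6. Smim14, a small membrane protein, had 37.5 in WT 2 and 42.5 in WT 3 on chromosome 5 from 65536799 to 65537184. This region ranked 4 of the 504, and its nearest HFD peak was 43485 bases away. Rbbp6, a ubiquitin ligase that also acts in mRNA 3' end processing, had 19.4 and 36.9 in the same livers, on chromosome 7 from 122998525 to 123000279. Outside this region it had 2 peaks in each HFD liver, against 2, 1 and 1 in WT 1, WT 2 and WT 3. Eif5, a translation initiation factor, had 14.8 in WT 2 and 13.0 in WT 3, and Ppp2r5a, a regulatory subunit of protein phosphatase 2A, had 14.8 in WT 1 and 10.6 in WT 3. Map4, a microtubule-binding protein, had 8.56 in WT 2 and 18.0 in WT 3, and Hdlbp, an RNA-binding protein of the endoplasmic reticulum, had 9.40 and 9.19. Both were among 32 of the 401 genes that also held a region of the opposite kind, with a peak in at least 2 HFD lists and no WT list. Plekhg1 and Tcea3 were among the 32 as well. Over all genes with a peak in any liver, 664 of 7906 held a region of that kind, a similar share.

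Marker lists of cell types other than skeletal and heart muscle held 46 genes with a peak in any liver and 1 of these had a WT-only region, against 401 of 7906 over all genes. With so few genes, no difference can be read from this count. Lyve1, a hyaluronan receptor of sinusoidal and lymphatic endothelium, was the only one of 9 endothelial genes with a peak in any liver that had one. Its region on chromosome 7 from 110853697 to 110853993 had 4.86 in WT 1 and 10.9 in WT 3. None had one among 5 hepatocyte genes, 8 of macrophages and Kupffer cells, 2 of lymphocytes, 9 of stellate cells and fibroblasts, 3 of cholangiocytes, 4 of adipocytes and 6 of smooth muscle with a peak in any liver. Of 22 writers, erasers and readers of m6A, 15 had a peak in some liver and none had a WT-only region. Zinc finger genes named Zfp gave 12 genes of 213 with a peak (5.63%) and Slc transporter genes 4 of 129 (3.10%), against 401 of 7906 (5.07%) over all genes.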

How the data were processed

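MeRIP-seq peak lists of liver RNA from 3 HFD mice and 3 WT mice were used, 1 list per mouse, and labels give separate replicate numbers. The submitters' processing notes list MACS2 2.1.0, Bowtie 1.1.2, Trimmomatic 0.33 and bcl2fastq 2.17, without the role of each. The deposited fold enrichment is the ratio of pull-down over input per peak as the authors' caller wrote it, unscaled between libraries. The score given here is the deposited value of minus 10 times the log10 of the p-value. The false discovery rate was read as a percent in the deposited lists, with values between 25 and 100. All peaks had a score of at least 50 and a fold enrichment of at least 2. A separate deposited column of peak scores was not used. Counts of reads were not used here.

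Peaks of the 6 lists (68562 in total) were joined into regions if they shared 1 base or more, chained and without strand, in Python 3.11.15 with pandas 2.3.3 and numpy 2.4.6. The merging was tested on simulated data. Each peak was given to its listed gene ID, or to the gene name if there was no ID. Of 401 genes, 392 matched RefSeq of GRCm38 by ID. Percentiles rank fold enrichment within a list. The members and gene lists (24 lists, 11 of them cell types) were chosen with earlier results of these data known.

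Named genes were all genes without an HFD peak with a region in all 3 WT lists, the 15 leading genes of each class and the 6 of each pattern by the lowest within-list percentile, genes with 3 or more regions, and at most 5 members per gene list. A leading gene that is withheld is not reported here. For other genes the text states that they were picked later. Alternatives changed the overlap, the gap, the peak threshold, the length of the lists, the number of WT lists, the muscle genes and the libraries. Sequence motifs and transcript segments were not analysed here.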

Additional observations from a re-analysis of the deposited data

How the results depend on the processing

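The count of 504 regions and the 146 genes (216 regions) without an HFD peak changed by less than 1.5 times when peaks up to 100 bases apart were joined, when an overlap of 0.5 of the shorter peak was asked for, and with lists of equal length (10109 peaks each). With equal lengths, however, WT 1 with WT 2 gave 132 regions and all 3 WT lists 91. When only the upper part of each list by fold enrichment was kept, from its median upward, 276 regions met the rule. Of these, 143 lay in genes without an HFD peak. By pattern the 276 were 33 for WT 1 with WT 2, 59 for WT 1 with WT 3, 157 for WT 2 with WT 3 and 27 for all 3. This threshold also removed the weaker HFD peaks, so regions with such a peak could newly meet the rule. With that threshold in WT lists only, 98 regions were left, with 66 regions in 38 genes without an HFD peak. When all 3 WT lists were asked for, 54 regions were left, of which 13 lay in 13 genes without an HFD peak. HFD peaks assigned to other genes lay over the RefSeq bounds of 4 of 141 matched genes in the class without an HFD peak. With such peaks counted, 142 genes stayed in that class. Without the skeletal muscle list, 132 regions lay in genes without an HFD peak and 180 had the pattern WT 2 with WT 3. With genes of a muscle component among the annotation terms also left out, an alternative chosen after seeing the data, these were 118 and 159. Leaving out a WT list asks for both others, which can lower the counts, and leaving out an HFD list can only raise them. Over the 6 libraries left out in turn, regions ran from 112 (without WT 3) to 932 (without HFD 1), genes without an HFD peak from 28 to 327 and their regions from 30 to 403, with the same libraries at the ends. Without WT 2, 166 regions and 47 genes (48 regions) were left, and without HFD 2, 772 regions and 224 genes. No paired analysis was possible because no result comes from a test. Depth is unknown, so no detection limit could be given. The alternatives for motifs and transcript segments were not run, as no genome was used here.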
